A study of Mus musculus with 4 samples.

Results

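The Hox genes described here are the 39 genes named Hoxa, Hoxb, Hoxc or Hoxd followed by a paralog number, out of 55602 genes in the bulk count table. All 39 are also in the table of allele-specific counts. They were chosen by their symbols, without use of any measured value. RNA-seq was carried out on day 12 of neural differentiation of mouse embryonic stem cells (ESCs), in 2 wild-type and 2 *Zfp57*-/- replicates. The wild-type cells were JB1, male hybrid ESCs from a JF1 mother and a C57BL/6 father. The *Zfp57*-/- cells were 1 knockout line made from JB1, so that the genotype and this line cannot be told apart. Both lines received 1 µM cyclopamine, an inhibitor of Sonic hedgehog signalling, from day 2 to day 10. The protocol is meant to yield precursors of cerebral cortex. ZFP57 is a KRAB zinc finger protein that keeps DNA methylation at imprinting control regions.

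Hox genes encode homeodomain transcription factors that give cells their position along the head-to-tail axis. They lie in clusters in which the order of the genes follows the order of their expression. Genes with low paralog numbers are switched on early and mark the hindbrain, genes with middle numbers mark the neck and trunk, and genes with high numbers, related to the fly gene *Abdominal-B*, mark the lumbar and tail levels and the limbs. In the forebrain and midbrain, Hox genes are normally silent. HOX proteins bind DNA together with PBX and MEIS cofactors, which belong to the TALE class of homeodomain proteins.

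On GRCm38, the Hoxa cluster of 11 genes spans chr6:52155590-52260880, the Hoxb cluster of 10 genes chr11:96194316-96368256, the Hoxc cluster of 9 genes chr15:102921103-103036852 and the Hoxd cluster of 9 genes chr2:74668310-74765142. Libraries held between 7663520 and 10337082 counts, of which the Hox genes took 1037 and 2739 in wild-type replicates 1 and 2, against 941 and 956 in *Zfp57*-/- cells. Wild-type replicate 2 thus stood apart, and results that rest on it are given with and without it. In each library, transcripts were measured as fragments assigned to the sense strand of a gene. Levels of different genes are compared as FPKM (fragments per kilobase of exon and per 1000000 fragments of the TMM-normalised library). The *Zfp57* gene itself had 392 and 249 counts in wild-type cells against 158 and 144 in *Zfp57*-/- cells. These counts cover the whole gene, outside the deletion too, and so do not check the labels.

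In *Zfp57*-/- cells, Hox genes changed in opposite directions along the paralog numbers. All genes that fell belong to paralog groups 2 to 9, and all genes that rose belong to groups 10 and 11. Of the 36 genes with more than 8 counts over the 4 libraries, 13 fell and 4 rose (edgeR quasi-likelihood test, Benjamini-Hochberg adjusted p below 0.05 over all 19995 genes tested), and 19 did not pass the threshold. Among all genes tested, 14.6% fell and 13% rose, 27.6% in all. The median log2 fold change was -0.92 for the Hox genes and -0.01 for all genes. *Hoxc12*, *Hoxd4* and *Hoxd12* had too few counts to be tested. Among the called genes, *Hoxc11*, *Hoxd10* and *Hoxd11* reached this minimum only through the *Zfp57*-/- libraries, and *Hoxb5* only through the wild-type libraries. Their directions are thus not independent of the filter. In bulk RNA, fewer cells with a transcript and less RNA per cell cannot be told apart. The median log2 fold change of the Hox genes depended on single libraries. It was -1.18 without wild-type replicate 1 and -0.50 without wild-type replicate 2. Without *Zfp57*-/- replicate 1 it was -1.07, and without *Zfp57*-/- replicate 2 it was -0.92. The median of all genes lay between -0.03 and 0.03 in these fits. Many calls were lost when a library was left out, as given below by gene.

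To show the start regions of genes that moved in opposite directions, 5 promoters are printed from the RefSeq table (GRCm38.p6), each from 250 bases before to 50 bases after the annotated start, in the gene's own direction. *Hoxd10* and *Hoxd11* rose, and *Hoxa2*, *Hoxa5* and *Hoxb8* fell. Capitals mark matches on either strand to TGCCGC, the hexamer bound by ZFP57 when methylated, to TGATNNAT, a composite site of HOX and PBX, or to TTTATGG, a site of CDX proteins. These motifs do not overlap one another in the promoters shown.
*Hoxd10*, chr2:74691641-74691940, plus strand: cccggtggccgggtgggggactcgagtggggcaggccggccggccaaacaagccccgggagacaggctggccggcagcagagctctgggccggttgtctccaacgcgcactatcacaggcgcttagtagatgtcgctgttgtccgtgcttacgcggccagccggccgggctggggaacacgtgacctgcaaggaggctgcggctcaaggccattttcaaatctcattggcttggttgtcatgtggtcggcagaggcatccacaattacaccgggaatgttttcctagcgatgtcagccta
*Hoxd11*, chr2:74682073-74682372, plus strand: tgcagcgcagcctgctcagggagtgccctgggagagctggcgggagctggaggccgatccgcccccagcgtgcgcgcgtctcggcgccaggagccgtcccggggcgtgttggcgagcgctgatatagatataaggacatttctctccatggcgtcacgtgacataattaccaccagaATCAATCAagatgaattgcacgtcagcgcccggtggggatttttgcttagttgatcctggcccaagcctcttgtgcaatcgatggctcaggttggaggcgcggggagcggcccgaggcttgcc
*Hoxa2*, chr6:52164782-52165081, minus strand: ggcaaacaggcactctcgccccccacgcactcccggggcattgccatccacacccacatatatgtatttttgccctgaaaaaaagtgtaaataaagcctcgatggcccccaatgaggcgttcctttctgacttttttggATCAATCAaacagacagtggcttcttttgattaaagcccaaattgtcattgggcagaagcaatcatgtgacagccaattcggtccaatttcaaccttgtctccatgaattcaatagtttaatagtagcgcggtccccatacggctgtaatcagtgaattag
*Hoxa5*, chr6:52204538-52204837, minus strand: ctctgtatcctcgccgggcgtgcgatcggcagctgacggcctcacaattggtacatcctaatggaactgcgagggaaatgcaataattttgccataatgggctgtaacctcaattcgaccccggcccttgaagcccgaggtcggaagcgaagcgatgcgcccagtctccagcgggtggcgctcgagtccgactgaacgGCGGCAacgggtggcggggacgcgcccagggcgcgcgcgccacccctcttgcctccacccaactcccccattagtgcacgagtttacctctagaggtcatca
*Hoxb8*, chr11:96281655-96281954, plus strand: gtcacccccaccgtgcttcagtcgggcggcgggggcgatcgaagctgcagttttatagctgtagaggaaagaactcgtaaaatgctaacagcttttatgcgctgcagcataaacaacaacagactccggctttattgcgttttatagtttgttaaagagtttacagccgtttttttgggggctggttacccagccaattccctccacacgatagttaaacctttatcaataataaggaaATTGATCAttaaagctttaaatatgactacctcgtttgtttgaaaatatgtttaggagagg
The table held promoters for 22 of the 39 genes. Genes without an entry included *Hoxa4*, *Hoxb2*, *Hoxb3*, *Hoxb5*, *Hoxb6*, *Hoxb7*, *Hoxb9*, *Hoxb13*, *Hoxc5*, *Hoxc6*, *Hoxc8*, *Hoxc9*, *Hoxc10*, *Hoxc11*, *Hoxc12* and *Hoxc13*. For *Hoxd11*, the second of 2 annotated starts is shown. TGCCGC was found in 2 of the 22 genes, *Hoxa5*, where it is read on the other strand as GCGGCA at bases 199 to 204, and *Hoxd1*. Of all 32851 promoters, 11.6% held it. TGATNNAT was found in 4 genes, *Hoxa2* (bases 140 to 147), *Hoxb8* (bases 240 to 247), *Hoxd11* (bases 178 to 185) and *Hoxb1*, and in 8.85% of all promoters. TTTATGG was found in *Hoxd4* alone among the 22 and in 2.75% of all promoters. Of these, *Hoxd11* rose and *Hoxa2* and *Hoxb8* fell, so that the composite site was not kept to one direction. In *Hoxd11* it stood at the second start only, and the first start held 0 matches. The printed *Hoxd10* promoter held no match to the motifs searched. GGCCGC, the other form of the ZFP57 hexamer, was not searched or counted over all promoters. Read on the other strand as GCGGCC, it stands in lower case in the printed *Hoxd10* and *Hoxd11* promoters. Hox promoters had between 4 and 45 CpG dinucleotides, with a median of 14.5, against a median of 7 for all promoters. Those of the 6 genes that fell had 9 to 29. Of the 2 genes that rose, *Hoxd10* had 22, and *Hoxd11* had 4 at its first start and 25 at its second.

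The first paralogs act earliest in the hindbrain. *Hoxd1* had 7 and 27 counts in wild-type cells against 10 and 24 in *Zfp57*-/- cells. *Hoxb1*, a marker of a single hindbrain segment, had at most 5 counts in any library. For both genes the replicates of the genotypes overlapped, and log2 fold changes were 0.01 and 0.15.

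The second paralogs set the identity of the second hindbrain segment and of the second pharyngeal arch. *Hoxa2* had 89 and 120 counts in wild-type cells against 26 and 23 in *Zfp57*-/- cells. It fell 4.36-fold (log2 fold change -2.12, SE 0.36, adjusted p = 0.0022). Its wild-type replicates were close, at 6.21 and 6.45 FPKM, and both stood above the *Zfp57*-/- replicates at 1.57 and 1.32 FPKM. *Hoxb2*, which had 66 and 166 counts against 60 and 48, did not pass the threshold (log2 fold change -1.09, SE 0.39, adjusted p = 0.062). Its log2 fold change was -1.51 without wild-type replicate 1 and -0.53 without wild-type replicate 2, each with a single wild-type library left.

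Paralogs 3 and 4 mark the caudal hindbrain. *Hoxb3* had 103 and 223 counts in wild-type cells against 27 and 45 in *Zfp57*-/- cells. It fell 4.54-fold (log2 fold change -2.18, SE 0.38, adjusted p = 0.0023). *Hoxa3* had 33 and 71 counts against 16 and 18 and fell 3.05-fold (adjusted p = 0.037). *Hoxd3*, at 31 and 20 counts against 11 and 7, was lower in both *Zfp57*-/- replicates but did not pass the threshold (adjusted p = 0.10). Of its exon bases, 62.3% are shared with another gene on the same strand, and for *Hoxd4* this share was 100%. Fragments in such exons are mostly left unassigned, so that the levels of these genes are uncertain. *Hoxd4* had 2 and 3 counts in wild-type cells and 0 in both *Zfp57*-/- replicates. Against a floor of 3 counts over the group, wild type was 1.72-fold higher. This ratio leaves out the counting error of the wild-type counts and is not a lower bound.

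*Hoxc4*, the first gene of its cluster, had 49 and 97 counts in wild-type cells against 15 and 24 in *Zfp57*-/- cells. It fell 3.76-fold (log2 fold change -1.91, SE 0.46, adjusted p = 0.013). *Hoxb4*, known also for its action in blood stem cells, had 53 and 90 counts against 29 and 32 and fell 2.37-fold (adjusted p = 0.041). *Hoxa4*, with 10 and 21 against 10 and 7 counts, did not pass the threshold (adjusted p = 0.39). For *Hoxc4* and *Hoxb4* the groups did not overlap. Leaving out *Zfp57*-/- replicate 1 ended the calls of *Hoxa3*, *Hoxb4* and *Hoxc4* (adjusted p = 0.26, 0.31 and 0.15). Those of *Hoxa3* and *Hoxb4* were also lost without *Zfp57*-/- replicate 2 (adjusted p = 0.22 and 0.27) and in DESeq2's test (adjusted p = 0.052 and 0.068), and that of *Hoxa3* without wild-type replicate 2 (adjusted p = 0.063). The calls of *Hoxa2* and *Hoxb3* held in all 7 other fits on 4 libraries and in all 4 fits that left out a library.

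The fifth paralogs, which act at neck and forelimb levels, all fell. *Hoxb5* had 14 and 39 counts in wild-type cells against 2 and 3 in *Zfp57*-/- cells. It fell 10.1-fold (log2 fold change -3.33, SE 0.80, adjusted p = 0.013), which was the largest decrease among the tested Hox genes. *Hoxa5*, needed for lung development, had 23 and 68 counts against 7 and 16 and fell 3.90-fold (adjusted p = 0.044). *Hoxc5* had 45 and 73 counts against 25 and 14 and fell 3.05-fold (adjusted p = 0.034). All 3 calls rested on both *Zfp57*-/- replicates. Without replicate 1 the adjusted p was 0.0992 for *Hoxb5*, 0.315 for *Hoxa5* and 0.0898 for *Hoxc5*, and without replicate 2 it was 0.063, 0.076 and 0.35. For *Hoxa5* it was 0.12 without wild-type replicate 2, where the log2 fold change moved from -1.96 to -1.24, and without *Zfp57*-/- replicate 2 it moved to -2.61. That of *Hoxb5* was -2.67 without wild-type replicate 2.

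The sixth to eighth paralogs mark the trunk. *Hoxb6* had 35 and 94 counts in wild-type cells against 21 and 9 in *Zfp57*-/- cells and fell 4.21-fold (adjusted p = 0.025). *Hoxb7* had 21 and 97 counts against 11 and 13 and fell 4.73-fold (adjusted p = 0.029). *Hoxb8*, a gene of the trunk spinal cord and of early myeloid cells, had 19 and 78 counts against 12 and 10 and fell 4.25-fold (adjusted p = 0.039). In each of these Hoxb genes, wild-type replicate 2 was the highest library and both *Zfp57*-/- replicates lay below both wild-type replicates. *Hoxc8*, a gene of brachial and thoracic levels, had 53 and 206 counts against 37 and 35 and fell 3.49-fold (adjusted p = 0.022).

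Other genes of these groups did not pass. *Hoxa7* had 33 and 146 counts in wild-type cells against 17 and 35 in *Zfp57*-/- cells (adjusted p = 0.053), and passed in 4 of the 7 other fits on 4 libraries. *Hoxc6*, the brachial gene of the cluster, had 62 and 132 against 49 and 50 counts (adjusted p = 0.074), and *Hoxa6* 9 and 25 against 10 and 4 (adjusted p = 0.26). *Hoxd8* was the exception in direction, with 38 and 45 counts in wild-type cells against 74 and 51 in *Zfp57*-/- cells (log2 fold change of 0.55, SE 0.40, adjusted p = 0.34). Without wild-type replicate 2 the calls of *Hoxb7*, *Hoxb8* and *Hoxc8* were lost (adjusted p = 0.21, 0.24 and 0.087), and their log2 fold changes moved from -2.24 to -1.05, from -2.09 to -1.02 and from -1.80 to -0.80. That of *Hoxb6* moved from -2.07 to -1.45, and without *Zfp57*-/- replicate 1 it was -2.83. Without wild-type replicate 1 the falls of *Hoxb7*, *Hoxb8* and *Hoxc8* were larger, at -2.90, -2.70 and -2.41. *Hoxb7* and *Hoxb8* lost theirs without *Zfp57*-/- replicate 1 (adjusted p = 0.0933 and 0.114), and these genes and *Hoxb6* without *Zfp57*-/- replicate 2 (adjusted p = 0.072, 0.18 and 0.20). For *Hoxa6*, *Hoxa7* and *Hoxc6*, the log2 fold changes were -1.71, -2.38 and -1.31 without wild-type replicate 1. They were -0.59, -0.59 and -0.57 without wild-type replicate 2. Such fits leave a single wild-type library and do not measure the spread between wild-type replicates.

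The ninth paralogs stand between the genes that fell and those that rose. *Hoxb9* was the Hox gene with the highest level in both genotypes, at 6.45 and 21.1 FPKM in wild-type cells against 5.71 and 4.61 FPKM in *Zfp57*-/- cells. Its counts were 134 and 570 against 137 and 116, and it fell 2.69-fold (log2 fold change -1.43, SE 0.45, adjusted p = 0.041). Wild-type replicate 1 was close to the *Zfp57*-/- replicates, and without wild-type replicate 2 the log2 fold change was -0.32 (adjusted p = 0.28), against -2.06 without wild-type replicate 1. *Hoxa9* (31 and 102 against 43 and 64 counts), *Hoxc9* (22 and 92 against 36 and 60) and *Hoxd9* (6 and 23 against 16 and 33) had overlapping groups and did not pass the threshold (adjusted p = 0.69, 0.80 and 0.45). These values depended on the wild-type libraries as well. Without wild-type replicate 1, the log2 fold changes of *Hoxa9*, *Hoxc9* and *Hoxd9* were -0.83, -0.84 and 0.19. Without wild-type replicate 2 they were 0.54, 0.87 and 1.76.

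The genes that rose belong to the tenth and eleventh paralogs of the Hoxc and Hoxd clusters, which specify lumbar motor neurons and parts of the limb. *Hoxd10* had 0 and 4 counts in wild-type cells against 38 and 36 in *Zfp57*-/- cells. It rose 17.5-fold (log2 fold change 4.13, SE 0.87, adjusted p = 0.0070) and reached 2.14 ± 0.155 FPKM (SD, n = 2). The ratio of its summed counts had a 95% interval of 6.73 to 67.7, which covers counting error only, and the size of the rise depended on the wild-type replicates. Without replicate 1 the log2 fold change was 3.28, and without replicate 2, where the wild-type count is 0, the fitted 8.14 depends on the prior count. *Hoxc10* had 1 and 12 counts against 54 and 46, and rose 7.69-fold (log2 fold change 2.94, SE 0.74, adjusted p = 0.016) to 2.75 ± 0.405 FPKM (SD, n = 2). Its log2 fold change was 2.16 without wild-type replicate 1 and 5.25 without wild-type replicate 2, which leaves 1 wild-type count. In *Zfp57*-/- cells, *Hoxc10* was second to *Hoxb9* in mean level among the 39 genes, above *Hoxd8* (2.40 ± 0.704 FPKM, SD, n = 2) by less than the spread between replicates.

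*Hoxc11* had 0 counts in both wild-type replicates and 10 and 12 in *Zfp57*-/- cells (adjusted p = 0.015). Against a floor of 3 counts over the wild-type group, it was 7.12-fold higher. This fold leaves out the counting error of the *Zfp57*-/- counts and is not a lower bound. *Hoxd11* had 0 and 1 counts against 9 and 15. Its ratio of summed counts was 23.3, with a 95% interval of 3.80 to 959 that also covers counting error only (adjusted p = 0.025). Without wild-type replicate 1 its log2 fold change moved from 4.25 to 3.52, and without replicate 2 no wild-type count is left. For all 4 genes both *Zfp57*-/- replicates stood above both wild-type replicates. The groups did not overlap in any of the 13 genes that fell either, so that this adds nothing to the calls. The share of all genes without overlap was not computed. *Hoxc11* and *Hoxd10* were called in all 11 alternative fits, whereas *Hoxd11* was not called by DESeq2 (adjusted p = 0.071) or without *Zfp57*-/- replicate 2 (adjusted p = 0.0899). With *Actb* as the scale, *Hoxc10* and *Hoxd11* remained higher but did not pass (adjusted p = 0.072 and 0.11).

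The Hoxa members of these groups were also higher, on average, in the *Zfp57*-/- replicates, without passing the threshold. *Hoxa10*, a gene of the lumbar vertebrae and the uterus, had 6 and 26 counts against 36 and 23 (adjusted p = 0.34). Its log2 fold change was 0.29 without wild-type replicate 1 and 2.04 without wild-type replicate 2. *Hoxa11*, needed for the forearm and kidney, had 3 and 5 counts against 16 and 8 (adjusted p = 0.20).

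The last paralogs were low throughout. *Hoxc13*, known for its role in hair, had 6 and 11 counts in wild-type cells against 26 and 16 in *Zfp57*-/- cells (log2 fold change of 1.28, adjusted p = 0.18). *Hoxd13* had 3 and 6 against 9 and 11 counts, *Hoxa13* 2 and 8 against 2 and 9, and *Hoxb13* 3 and 2 against 0 and 9, and the adjusted p was 0.34 or higher. *Hoxc12* had 0 in both wild-type replicates and 4 and 2 counts in *Zfp57*-/- cells, 1.94-fold higher against the floor of 3 counts. *Hoxd12* had 0, 0, 0 and 4 counts, 1.30-fold higher against this floor, and its groups overlapped. Both ratios leave out the counting error of the *Zfp57*-/- counts and are not lower bounds. Depth limits what can be said of these genes.

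**Figure D1:**
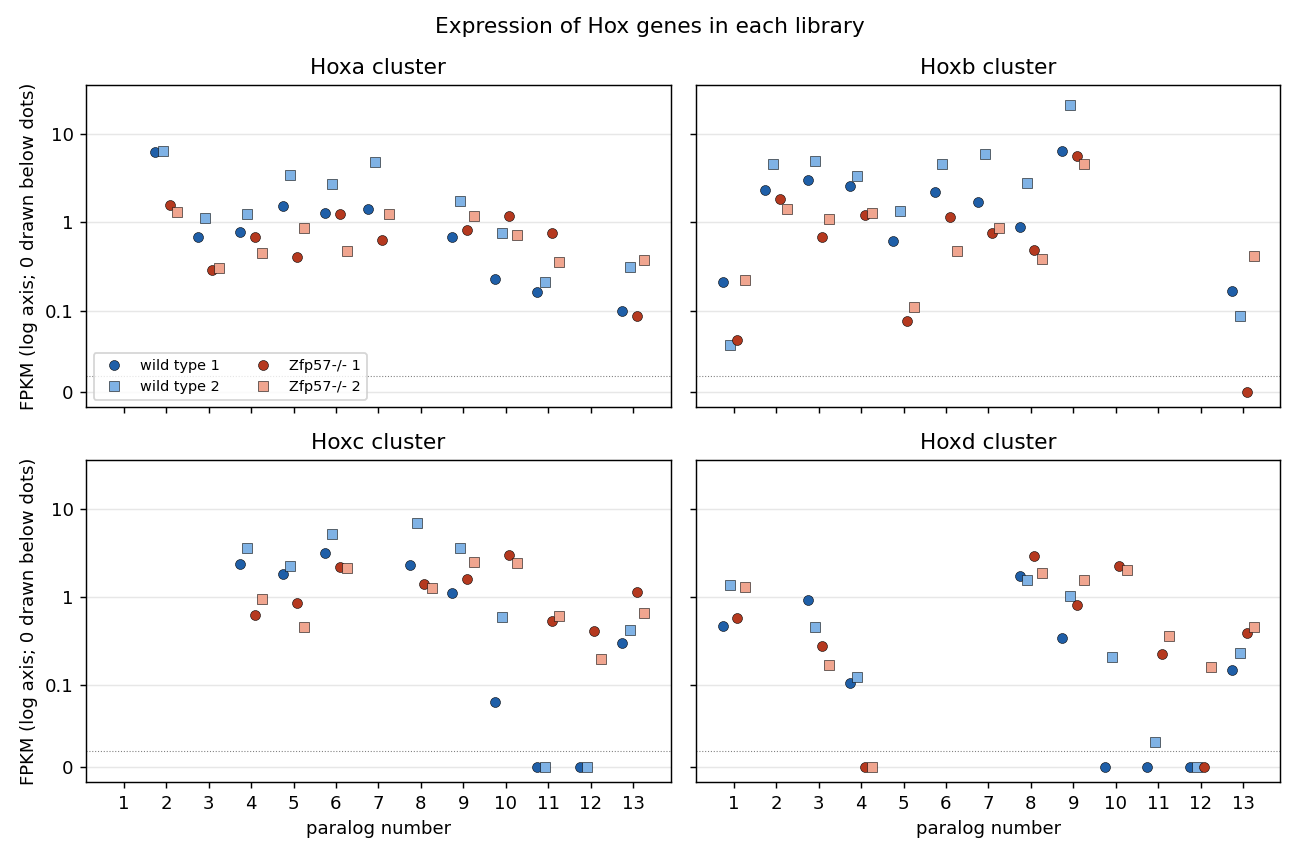
FPKM of Hox genes in each library, on a log axis with 0 drawn under the dotted line, by cluster and paralog number. *Hoxb9* is the highest gene, at 21.1 FPKM in wild-type replicate 2, and *Hoxc10*, *Hoxc11*, *Hoxd10* and *Hoxd11* are higher in both *Zfp57*-/- replicates than in both wild-type replicates.

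By cluster, 7 of 10 tested Hoxb genes fell and none rose, with a median log2 fold change of -1.75. In the Hoxa cluster 3 of 11 fell and none rose, with a median of -0.86. The Hoxc cluster was split, with 3 genes lower, 2 higher and 3 neither among 8 tested. In the Hoxd cluster 2 of 7 tested genes rose and none fell, with a median of 0.76, and *Hoxd3* alone among the 7 had a negative value in this fit. Over all genes tested, 14.6% fell and 13% rose. Several of the calls counted here were lost when a library was left out, as given above by gene. The difference between clusters was not tested, and genes of 1 cluster are not independent.

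Summed over genes, the levels of the low paralogs separated the genotypes and those of the high paralogs as a whole did not. Paralogs 1 to 4 summed to 20.8 and 28.8 FPKM in wild-type cells against 9.47 and 9.37 FPKM in *Zfp57*-/- cells. Paralogs 5 to 8 summed to 18.6 and 41.8 FPKM against 12.1 and 10.2 FPKM. In both groups each *Zfp57*-/- replicate lay under each wild-type replicate. Paralogs 9 to 13 summed to 9.78 and 30.4 FPKM in wild-type cells against 18.9 and 18.7 FPKM in *Zfp57*-/- cells, so that the *Zfp57*-/- replicates lay between the wild-type replicates. Their log2 ratio of means was -0.09, and 0.94 without wild-type replicate 2 and -0.69 without wild-type replicate 1.

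Within the last group, the ninth paralogs and the later ones were also summed apart. This split was not planned and falls where the calls of single genes change direction. The later paralogs hold the 4 genes called higher, so that their sum adds no separate evidence. The ninth paralogs summed to 8.60 and 27.5 FPKM against 8.93 and 9.88 FPKM. Paralogs 10 to 13 summed to 1.17 and 2.85 FPKM in wild-type cells against 10.0 and 8.80 FPKM in *Zfp57*-/- cells, with no overlap. As a share of all Hox FPKM, paralogs 9 to 13 made 19.9% and 30.1% in wild-type cells against 46.8% and 48.9% in *Zfp57*-/- cells. With 2 replicates in each genotype, no exact permutation test can pass 0.05, and these sums are descriptions.

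**Figure D2:**
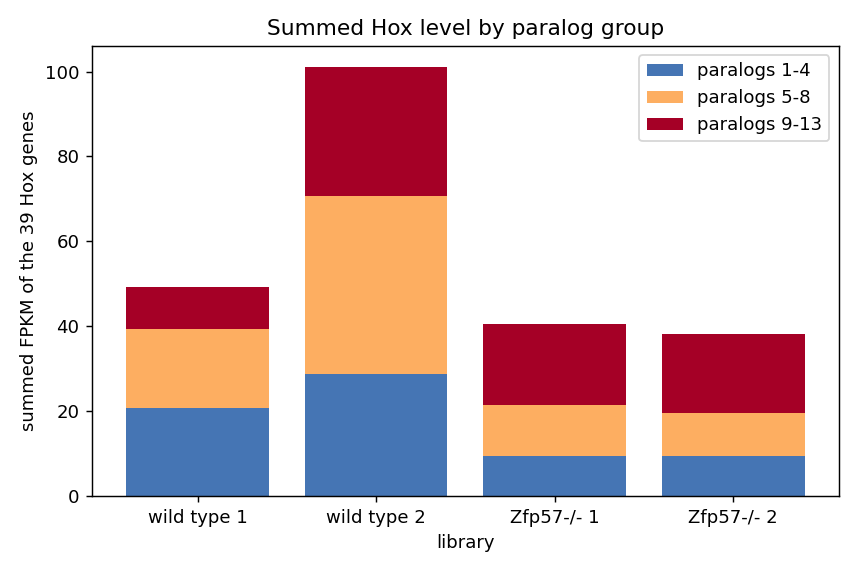
Summed FPKM of Hox genes in each library, stacked by paralog group. Wild-type replicate 2 reaches 101 FPKM, wild-type replicate 1 49.2 FPKM and the *Zfp57*-/- replicates 40.5 and 38.2 FPKM, and paralogs 9 to 13 form the largest part in *Zfp57*-/- cells.

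The wild-type replicates differed from each other in Hox levels. Over the 22 Hox genes with at least 20 counts in each genotype, the normalised count of wild-type replicate 2 was a median of 2.17 times that of replicate 1, and 12 genes had a ratio above 2. Among all 13868 genes with this minimum, the median ratio was 1.07 and 3.28% exceeded 2. In *Zfp57*-/- cells the median ratio of the 22 genes was 1.01. The median wild-type ratio was 1.59 for paralogs 1 to 4, 2.28 for paralogs 5 to 8 and 3.22 for the later ones. *Hoxa2* had a wild-type ratio of 1.04, against 3.56 for *Hoxb7* and 3.28 for *Hoxb9*.

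Summed levels of several marker lists of other cell types also differed between these replicates, though not every member moved the same way. *Cdx2*, a caudal activator of Hox genes named here after its values were seen, had 27 and 205 counts in wild-type cells against 53 and 67 in *Zfp57*-/- cells. Summed CPM (counts per 1000000 of the normalised library) of wild-type replicates 1 and 2 were 276 and 532 for 6 endoderm markers, 39.6 and 63.3 for 8 markers of primitive streak and posterior mesoderm, 89.9 and 111 for 4 endothelial markers, 16.8 and 15.5 for 4 neural crest markers and 1680 and 2035 for 7 neural markers. Within these lists *Kdr* (414 and 171 counts), *Pecam1* (34 and 9), *Tbx6* (10 and 1), *Foxf1* (17 and 5) and *Hand1* (13 and 2), named after their values were seen, were lower in wild-type replicate 2. *Cdh5* (163 and 635 counts), *Tek* (115 and 348), *T* (117 and 345) and *Meox1* (32 and 121) were higher there. The part of these cells in the Hox levels was not tested.

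**Figure D3:**
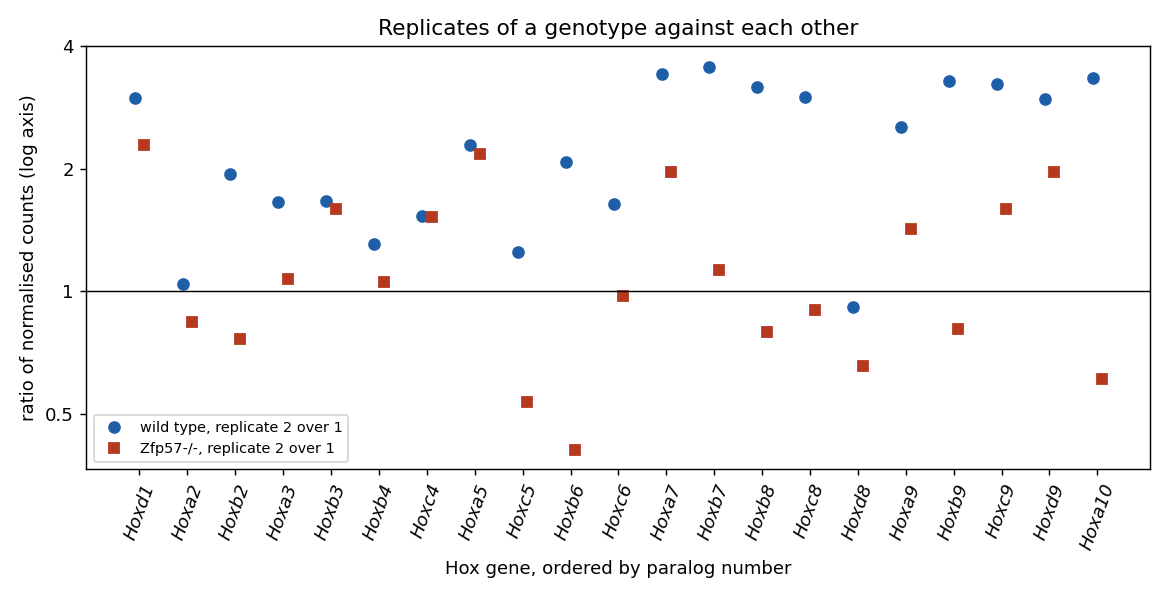
Ratio of the normalised counts of replicate 2 to replicate 1 in both genotypes, on a log axis, for Hox genes with at least 20 counts in each genotype. Wild-type ratios reach 3.56, and 12 exceed 2, whereas *Zfp57*-/- ratios lie between 0.41 and 2.29 around a median of 1.01.

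Markers of the cultures also differed between genotypes, where 14.6% of all genes fell and 13% rose. All 7 pluripotency markers rose, and their summed level was 4.09 and 7.54 CPM in wild-type cells against 1397 and 1220 in *Zfp57*-/- cells. *Nanog* was at 0 in both wild-type replicates. Of the 7 neural markers, 6 fell, and their sum was 400 and 353 CPM in *Zfp57*-/- cells. Of the streak and posterior mesoderm markers, 3 rose and 1 fell, with sums of 144 and 156 CPM in *Zfp57*-/- cells. These 4 calls became 2 without either *Zfp57*-/- replicate, with *Actb* as the scale and with the stricter filter, and 6 without wild-type replicate 1. Of the endoderm markers 1, *Cxcr4*, fell, and the sums there were 457 and 611 CPM. Without wild-type replicate 2 and in the replicate block fit, 4 of the 6 rose and 1 fell, with no filter 3 rose and 1 fell, and without wild-type replicate 1 or *Zfp57*-/- replicate 1, 1 rose and 1 fell. Among endothelial markers 2 rose and 1 fell (sums of 109 and 130 CPM), of which 1 call was left with *Actb* as the scale, and among neural crest markers 1 rose and 2 fell (sums of 12.9 and 14.3 CPM). Their part in the Hox changes was not tested.

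The TALE cofactors, with which HOX proteins bind DNA, fell in 7 of 9 cases, and none rose (median log2 fold change -1.16). The share of all genes tested that fell was 14.6%. *Meis2* had 2481 and 2520 counts in wild-type cells against 593 and 549 in *Zfp57*-/- cells and fell 4.57-fold (adjusted p = 7.0e-05). *Pbx3* fell 4.63-fold (adjusted p = 8.7e-05) and *Meis1* 2.24-fold (adjusted p = 0.0015). The smallest of the named changes was that of *Pknox2*, at 1.96-fold (adjusted p = 0.0090). Wild-type replicates were close here, at 969 and 896 CPM summed over the list, against 333 and 340 in *Zfp57*-/- cells. Without *Zfp57*-/- replicate 1, 4 of the 9 passed.

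Of 8 upstream activators of Hox genes, 7 were tested and 3 fell, where 14.6% of all genes fell. *Egr2*, which activates *Hoxa2* and *Hoxb2* in the hindbrain, had 122 and 46 counts in wild-type cells against 32 and 22 in *Zfp57*-/- cells (3.40-fold, adjusted p = 0.046). *Gdf11*, a TGF-beta family ligand that helps to switch on posterior Hox genes, had 576 and 960 against 288 and 243 counts (2.93-fold, adjusted p = 0.00073). The list gave 5 calls in the replicate block fit, with no filter, and without either wild-type replicate, in each case 4 lower and 1 higher. It gave 2 with upper-quartile scaling, with the stricter filter and without *Zfp57*-/- replicate 2.

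Noncoding genes within the clusters were low, and 8 of the 16 that could be matched were tested. Of these, *Hoxaas2*, transcribed antisense in the Hoxa cluster, had 53 and 43 counts in wild-type cells against 9 and 6 in *Zfp57*-/- cells (6.65-fold lower, adjusted p = 0.0072), and *Hoxb3os* had 45 and 46 against 14 and 12 (3.62-fold lower, adjusted p = 0.024). Strand was used in counting, so that *Hoxb3os* was counted apart from *Hoxb3*. None of these genes rose, and the 2 calls among 8 stand beside 27.6% of all genes called. Without *Zfp57*-/- replicate 1 there was 1 call, and without replicate 2 there were 0. *Mir196a-2* and *Mir196b* were at 0 in all 4 libraries, which do not measure mature microRNAs.

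Beyond the ends of the clusters, 13 flanking genes were tested, of which 4 fell and 1 rose, where 14.6% of all genes fell and 13% rose. *Evx2*, the even-skipped homeobox gene next to *Hoxd13*, had 74 and 96 counts in wild-type cells against 1 and 0 in *Zfp57*-/- cells. The ratio of summed counts was 175, with a 95% counting interval of 31.0 to 6954 (adjusted p = 0.00012). *Evx1*, next to *Hoxa13*, had 84 and 56 counts against 8 and 22 and fell 4.99-fold (adjusted p = 0.014). *Evx2* thus fell while *Hoxd10* and *Hoxd11*, in the cluster beside it, rose. *Hoxd13*, its nearest Hox gene, did not pass the threshold. In the Hoxa cluster, beside *Evx1*, no gene rose past the threshold.

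*Lnpk*, on the far side of *Evx2*, fell 2.18-fold (adjusted p = 0.0070), and *Smug1*, beside the Hoxc cluster, 1.65-fold (adjusted p = 0.047). *Calcoco2*, near the Hoxb cluster, had 1 and 0 counts against 35 and 49, a ratio of 81.6 with a counting interval of 14.2 to 3260 (adjusted p = 0.0013). The flanking list gave 8 calls without wild-type replicate 1 and 2 without *Zfp57*-/- replicate 1. Its median log2 fold change was 0.00.

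Transcription factors of more anterior and of hindbrain tissue were compared alongside. Of 11 tested forebrain and midbrain factors, 6 fell and 1 rose, where 14.6% of all genes fell and 13% rose. *Lhx2* had 297 and 206 counts in wild-type cells against 0 and 4 in *Zfp57*-/- cells (adjusted p = 5.7e-05), *Pax6* fell 8.19-fold (adjusted p = 6.3e-05), *En2* 12.7-fold (adjusted p = 0.00027), *Otx1* 33.6-fold (adjusted p = 0.00067) and *En1* 4.26-fold (adjusted p = 0.016). *Hesx1*, a factor of the earliest forebrain, had 0 counts in wild-type cells and 39 in each *Zfp57*-/- replicate, at least 25.3-fold higher (adjusted p = 0.00096).

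Of 8 hindbrain factors, 6 fell and 1 rose, beside the same shares of all genes, 14.6% and 13%. *Atoh1*, the factor of the rhombic lip, had 270 and 423 counts against 0 and 2, a ratio of 357 with a counting interval of 98.4 to 2952. *Ptf1a* had 34 and 23 against 0 in both *Zfp57*-/- replicates. Against a floor of 3 counts over the *Zfp57*-/- group, it was 19.6-fold higher in wild type, leaving out the counting error of the wild-type counts. *Olig3* (129 and 191 against 5 and 0 counts), *Lhx5* (47 and 93 against 3 and 6) and *Lmx1b* (177 and 364 against 13 and 31) also fell. *Gbx2*, which sets the border of midbrain and hindbrain, rose from 25 and 71 to 132 and 125 counts, 2.69-fold (adjusted p = 0.022).

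The hybrid genome allowed the maternal JF1 and paternal C57BL/6 transcripts to be counted apart. Allelic reads made between 36.1% and 37.0% of the bulk counts of a library, and for the Hoxb cluster they numbered 215 and 690 in wild-type cells against 174 and 162 in *Zfp57*-/- cells. The maternal share of Hoxb reads was 46.5% (95% Wilson interval 40 to 53.2) and 46.7% (43.0 to 50.4) in wild-type and 45.4% (38.2 to 52.8) and 51.2% (43.6 to 58.8) in *Zfp57*-/- cells. Reads of both alleles were thus present in every library. The median share of the 15 nearest genes that reached 10 allelic reads in all libraries was between 47.4% and 50.4% across libraries.

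In the Hoxa cluster the maternal share was 42.1% and 55.2% in wild-type cells against 41.4% and 49.4% in *Zfp57*-/- cells. In the Hoxc cluster it was 47.2% and 50.7% against 41.8% and 56.5%. Replicates of a genotype differed by more than the genotypes did in these clusters. In the Hoxd cluster the share was 37.2% (24.4 to 52.1) and 31.6% (21.0 to 44.5) in wild-type and 49.1% (36.6 to 61.7) and 50% (38.9 to 61.1) in *Zfp57*-/- cells. The wild-type libraries held 43 and 57 Hoxd reads, and 30 of these 100 came from *Hoxd3*. Without *Hoxd3*, the wild-type shares were 45.8% and 39.1%, and the *Zfp57*-/- shares 50% and 49.3%.

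**Figure D4:**
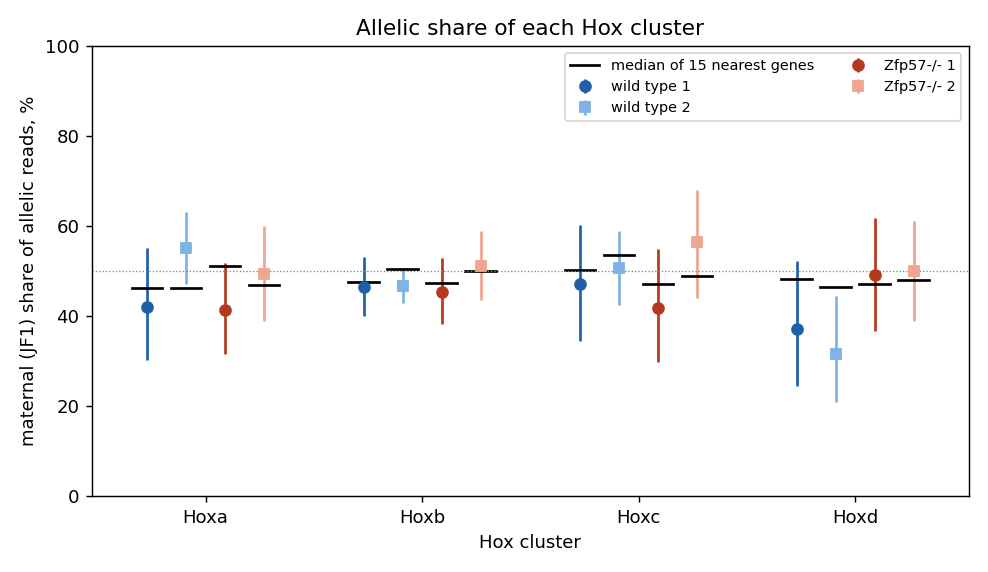
Maternal share of the allelic reads of each Hox cluster in each library, with 95% Wilson intervals, which cover counting error only. Black bars give the median share of the 15 nearest genes. The wild-type Hoxd shares, 37.2% and 31.6%, are the lowest, and the Hoxb shares lie between 45.4% and 51.2%.

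By gene, 17 Hox genes reached 10 allelic reads in both genotypes and were tested. The genotype-by-allele contrast asks whether the allelic ratio differs between genotypes. None of the 17 genes passed it with edgeR (13.8% of 11958 autosomal genes passed), none had an unadjusted p below 0.05, and DESeq2 called 0 as well. Of the 17, only *Hoxb2*, *Hoxb3* and *Hoxb9* had more than 100 allelic reads in wild-type cells, and small differences were not detectable at this depth in the others.

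Within genotypes, 1 gene passed in each. In wild-type cells *Hoxd3* had 5 maternal and 14 paternal reads in replicate 1 and 0 and 11 in replicate 2 (maternal share 16.7%, interval 7.34 to 33.6, adjusted p = 0.034, 22.5% of all genes called). In *Zfp57*-/- cells it had 4 and 5 reads in replicate 1 and 2 and 1 in replicate 2. In *Zfp57*-/- cells *Hoxb9* had 33 maternal and 61 paternal reads in replicate 1 and 30 and 42 in replicate 2 (maternal share 38.0%, interval 30.9 to 45.5, adjusted p = 0.041, 21.4% of all genes called). Its share in wild-type cells was 43.2% (38.6 to 47.8, adjusted p = 0.23), and the contrast between the genotypes did not pass (adjusted p = 0.65). With DESeq2 neither gene was called. The call of *Hoxd3* was no longer made when either wild-type replicate was left out. With either *Zfp57*-/- replicate left out, *Hoxd3* had under 10 allelic reads in *Zfp57*-/- cells and was not tested. The call of *Hoxb9* was no longer made without wild-type replicate 2 or without *Zfp57*-/- replicate 1.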

How the data were processed

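Stranded paired-end libraries of ribosome-depleted total RNA, 2 from each genotype, were analysed from 2 tables. Per the submitters' processing notes and the study's methods, the authors used Trimmomatic 0.36 for trimming and STAR 2.5.4a for alignment to GRCm38, kept unique alignments, and deposited raw counts of fragments per GENCODE M20 gene, assigned on the sense strand by featureCounts of Subread 1.6.0. For the allelic table, which also holds counts, the authors aligned to a genome masked at strain SNPs and split the reads by allele. Fragments that overlap exons of several genes on the same strand were not assigned. Every column of sample values was matched to its sample by its name.

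Here, R 4.3.3 with edgeR 4.0.16 and Python 3.11.15 with scipy 1.17.1 were used. Bulk genotypes were compared by the robust quasi-likelihood test of edgeR after TMM normalization, for genes whose counts summed to more than 8, with Benjamini-Hochberg adjustment over all genes tested, at a threshold of 0.05. FPKM were computed from counts, TMM library sizes and exon lengths. Alleles were compared for autosomal genes that reached 10 allelic reads in both genotypes, in a model with library terms and a separate allele term for either genotype. Scripts were tested on simulated data. Intervals are at 95%, and folds against 0 counts use a floor of 3 counts over the group. These folds leave out the counting error of the other group.

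Alternatives were DESeq2 1.42.0, its size factors, upper-quartile and *Actb* scaling, no filter, a stricter filter (1 CPM in at least 2 libraries), other thresholds, a replicate block, and each library left out. With a library left out, the lone sample is assumed to vary like the other genotype. Hox genes may be named, and from each companion list at most 5 called genes per direction by smallest adjusted p, besides those at 0. Members and lists were chosen with earlier results of these data known. Day 0 cells and ZFP57 binding data were not used here. Some genes that these rules would name are not reported here, and the plots of single genes leave them out.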

Additional observations from a re-analysis of the deposited data

How the results depend on the processing

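The Hox genes called in bulk numbered 17, 4 higher and 13 lower. With DESeq2's test they numbered 15, with no filter 19, with the stricter filter 16, and with DESeq2's size factors or upper-quartile scaling 17. With *Actb* as the scale 11 were called, of which 2 were higher, and 3480 of all genes passed instead of 5522. That scale moved the median log2 fold change of all genes to -0.68 and of the Hox genes to -1.46. No called Hox gene changed direction under these alternatives. At an adjusted p of 0.01, 3 Hox genes passed (1 higher, 2 lower), and 2901 of all genes. With 1 library left out, the counts ranged from 9 to 23 Hox genes (3 to 6 higher, 5 to 19 lower) and from 2831 to 9947 of all genes, the Hox median from -1.18 to -0.50, and *Zfp57* from -1.62 to -0.61 in log2 fold change (adjusted p = 0.072 without *Zfp57*-/- replicate 2).

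Replicate numbers are shared by the genotypes, but deviations from the genotype means correlated at only 0.14 between libraries of equal number (13276 genes), and 2 pairs do not establish a pairing. The replicate block gave 20 Hox genes (4 higher, 16 lower) and 6984 of all genes.

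For alleles, DESeq2 called 0 Hox genes in either genotype. A minimum of 20 reads, which left 8 Hox genes, called 0 in wild-type and 1 in *Zfp57*-/- cells. *Hoxd3*, with 12 allelic reads in *Zfp57*-/- cells, was not tested at that minimum, nor with a *Zfp57*-/- library left out. Leaving out a library gave 0 calls in wild-type and 0 to 1 in *Zfp57*-/- cells, and the replicate block 1 in each. Kept to genes that reached 10 allelic reads in all libraries, the mean maternal fraction in wild-type cells moved from 0.4864 to 0.3327 for Hoxa, 0.4659 to 0.4696 for Hoxb, 0.4895 to 0.4167 for Hoxc and 0.3439 to 0.4773 for Hoxd, and in *Zfp57*-/- cells from 0.4539 to 0.3599 for Hoxa, 0.4832 to 0.4858 for Hoxb, 0.4913 to 0.5251 for Hoxc and 0.4956 to 0.4724 for Hoxd. Outside Hoxb 1 gene per cluster then remained. Without *Hoxd3*, an alternative chosen after seeing the data, the wild-type Hoxd fraction was 0.4248. The causes were not tested. Depth limits the allelic results, since 22 of the 39 Hox genes had under 10 allelic reads in a genotype.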
